A study of Mus musculus with 4 samples.

Results

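Glucocorticoids act through the glucocorticoid receptor (GR), and 10 genes that many tissues induce soon after the hormone were followed here through the GR and E2A peaks of mouse liver. They are Tsc22d3, Zfp36, Dusp1, Nfkbia, Sgk1, Errfi1, Klf9, Mt1, Mt2 and Lcn2, out of 21774 protein-coding genes with a RefSeq start on the autosomes and sex chromosomes of the mm10 genome. A peak was counted at a gene when the deposited annotation named that gene, or when the peak lay within 50 kb of its RefSeq start. By this rule 139 of the 17545 peaks in the 4 lists belonged to the 10 genes, of which 105 were annotated to one of them and 34 to a neighbouring gene.

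The study mapped GR and E2A by ChIP-Seq in liver, with 2 biological replicates per antibody. E2A is the product of Tcf3, a gene whose splice forms E47 and E12 are basic helix-loop-helix proteins, and the E2A antibody does not tell the forms apart. The livers came from adult male E47+/+ C57BL/6 mice on chow, collected at ZT 10, so no group lacked either factor and no untreated and treated livers were compared. The study's text says that E2A was precipitated from the livers used for GR, so the GR and E2A samples do not stand for separate mice, and which GR sample shares a liver with which E2A sample is not given in the sources used here. The labels call every mouse untreated, while a supplementary description of the study's peak list speaks of Dex treatment, and the files do not settle which holds. Both E2A samples carry a free-text description that names GR, and for E2A replicate 2 it also names E47-/-; title, antibody and genotype tags say E2A and E47+/+ and were followed. The lists held 4291 and 7334 peaks for GR replicates 1 and 2 and 4028 and 1892 peaks for E2A replicates 1 and 2. They give the start and end of each peak but no reads or heights. The authors reduced each ChIP to a fixed number of read pairs, which was smaller for GR than for E2A. The reads behind a single peak are unknown, and the results below are the presence, position and width of called peaks.

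Hormone-bound GR enters the nucleus and binds the glucocorticoid response element (GRE), a palindrome of the arms AGAACA and TGTTCT with a spacer of 3 bases, or is held at chromatin by other factors. E proteins such as E47 bind E-boxes, CANNTG. Several of the 10 genes feed back on inflammation: Tsc22d3 (also called Gilz) encodes a leucine zipper protein that restrains NF-kB and AP-1, Zfp36 (tristetraprolin) removes AU-rich mRNAs, Dusp1 dephosphorylates MAP kinases, and Nfkbia encodes the NF-kB inhibitor IkB-alpha. Sgk1 is a kinase of the insulin and mineralocorticoid pathways, Errfi1 (Mig6) dampens EGF receptor signalling in liver, and Klf9 is a zinc finger transcription factor. Mt1 and Mt2 encode metal-binding metallothioneins, and Lcn2 the secreted iron-siderophore carrier lipocalin 2.

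The GREs closest to the consensus are shown first, as the fullest matches to the receptor's element under the GR peaks of these genes. Each line gives the plus strand of mm10 with the GRE in capitals and 15 bases on either side. In the first 5 the GRE has 0 mismatches, when either purine is allowed at 2 bases of the left arm and either pyrimidine at the mirrored 2 bases of the right arm.
Sgk1: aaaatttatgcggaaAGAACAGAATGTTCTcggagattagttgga
Mt1: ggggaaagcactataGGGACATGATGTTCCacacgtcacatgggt
Mt2: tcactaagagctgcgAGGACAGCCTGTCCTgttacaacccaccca
Errfi1 upstream: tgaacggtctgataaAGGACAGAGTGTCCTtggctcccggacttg
Klf9 upstream: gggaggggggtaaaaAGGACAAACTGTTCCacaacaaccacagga
The Sgk1 element, chr10:21993701-21993715, lies at -182 bp of a RefSeq transcript start (negative distances are upstream, and those of peaks are to their nearest edge), inside a promoter peak of GR replicate 1. The Mt1 element, chr8:94178994-94179008, lies at -88 bp, and that of Mt2, chr8:94171535-94171549, at -1076 bp; peaks of both GR replicates cover each. The Errfi1 element, chr4:150800089-150800103, lies at -53700 bp in an intergenic peak of both GR replicates. The Klf9 element, chr19:23135092-23135106, lies at -6127 bp, and it alone of the 5 is also under an E2A peak, that of replicate 2. Of 8 elements with 1 mismatch, 4 were under peaks of GR and E2A, and 3 of them are shown. The one not shown, chr4:150865820-150865834 in the Errfi1 gene, is under peaks of all 4 samples.
Errfi1 far upstream: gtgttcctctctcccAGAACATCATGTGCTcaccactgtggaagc
Klf9 far upstream: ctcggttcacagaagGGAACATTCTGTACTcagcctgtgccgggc
Slc25a25 intron: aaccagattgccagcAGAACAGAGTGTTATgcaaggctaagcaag
Peaks of all 4 samples cover the far Errfi1 element, chr4:150755572-150755586. Those of both GR replicates and E2A replicate 1 cover the far Klf9 element, chr19:23057012-23057026, and the one near Lcn2, chr2:32419488-32419502.

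For the promoters, the 250 bases before the RefSeq start are shown for 1 gene whose promoter was called by GR alone and 1 whose promoter was called in all 4 samples. They are from RefSeq (GRCm38.p6), written along the gene, with the GRE in capitals for Mt1 and CACGTG in capitals for Dusp1.
Mt1 promoter: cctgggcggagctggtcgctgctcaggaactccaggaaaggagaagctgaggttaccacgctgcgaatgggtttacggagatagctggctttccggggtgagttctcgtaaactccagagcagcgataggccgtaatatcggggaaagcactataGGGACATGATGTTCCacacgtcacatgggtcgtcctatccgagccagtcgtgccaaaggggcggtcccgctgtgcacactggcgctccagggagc
Dusp1 promoter: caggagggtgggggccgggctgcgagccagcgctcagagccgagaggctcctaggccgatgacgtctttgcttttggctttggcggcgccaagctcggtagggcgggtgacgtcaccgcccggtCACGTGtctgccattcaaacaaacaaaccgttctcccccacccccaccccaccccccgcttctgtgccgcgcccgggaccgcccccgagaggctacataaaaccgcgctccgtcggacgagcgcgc
The first is chr8:94178839-94179088 on the plus strand and the second chr17:26508473-26508722 on the minus strand. Among 21263 protein-coding promoters of 300 bases in this table, 14.0% held a GRE with up to 2 mismatches, 7.84% held CACGTG and 69.0% held some CANNTG on either strand (CACGTG is also a CANNTG). The marked motifs did not follow the calls at every promoter of the 10 genes. The Mt1 promoter also held an E-box, left unmarked above. The Sgk1 promoter called in GR replicate 1 alone held a GRE and also the motif marked for Dusp1. The Sgk1 promoter called in both GR replicates held a GRE and no E-box. Those of Zfp36 and Klf9, called in all 4 samples, held an E-box other than the motif marked for Dusp1. A match describes the letters in the window and is not a bound site.

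All 10 genes had a GR peak in both replicates, against 22.3% of all protein-coding genes, and none was without any peak, against 50.6%. An E2A peak in both replicates was found at 6 of 10, against 12.0%, and these 6, Zfp36, Dusp1, Nfkbia, Errfi1, Klf9 and Lcn2, had peaks in all 4 samples, against 7.89%. Tsc22d3 and Sgk1 had GR peaks in both replicates and no E2A peak, a pattern of 2 of 10 genes against 6.16%. Mt1 and Mt2 had GR peaks in both replicates and an E2A peak in replicate 1 alone. The median number of peaks over the 4 samples was 10 per gene, against 0 over all protein-coding genes and 3 among those with any peak.

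**Figure D1:**
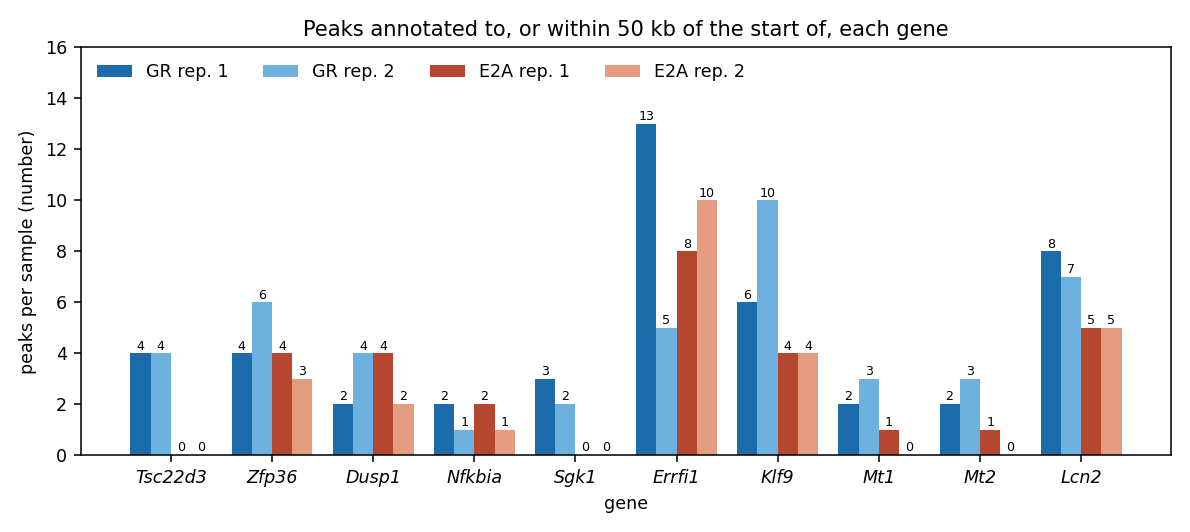
Number of peaks (y axis) at each of the 10 genes (x axis) in GR replicates 1 and 2 (blue) and E2A replicates 1 and 2 (red). Tsc22d3 and Sgk1 have 0 E2A peaks in both replicates, and Errfi1 ranges from 5 to 13 peaks per sample.

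Counted once each, 44 and 42 peaks of GR replicates 1 and 2 and 28 and 25 peaks of E2A replicates 1 and 2 were at these genes. The groups did not overlap, with a mean of 43 for GR and 26.5 for E2A, a difference of 16.5 peaks (exact permutation test over samples, two-sided, p = 0.33, the smallest p that 2 against 2 samples allow). The test takes the samples as independent, although the ChIPs share livers, and with labels permuted within the replicate number as a block p was 0.5, the smallest that 2 pairs allow. GR reached 10 genes in each replicate, and E2A 8 and 6 (difference 3, exact permutation p = 0.33). Over all protein-coding genes a peak in both replicates was also more frequent for GR, 22.3%, than for E2A, 12.0%. The share of all genes with a peak in a single list is not given here, so the gap is not shown to be particular to these genes. The lists differ in length, however, and as a share of each list the ChIPs overlapped: 1.03% of GR replicate 1 (95% Wilson interval 0.765 to 1.37%), 0.573% of GR replicate 2 (0.424 to 0.773%), 0.695% of E2A replicate 1 (0.481 to 1.00%) and 1.32% of E2A replicate 2 (0.897 to 1.94%). Without Errfi1 the counts were 31, 37, 20 and 15 in that order.

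Among the genes that restrain inflammation, Tsc22d3 stood apart with 4 peaks in each GR replicate and 0 in each E2A replicate. The replicates called 3 positions in common: the promoter of the short isoform, where the peaks measured 830 and 605 bp, an intronic position of 275 and 346 bp, and a position of 345 and 268 bp in the first intron of the long isoform, at 984 bp from its start. A peak at 36454 bp downstream was called in GR replicate 1 alone and 1 past the gene's end, at 3385 bp, in GR replicate 2 alone. No position called in both replicates held a GRE with up to 2 mismatches, and the single GRE was in the distal peak of replicate 1.

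Zfp36 had 4 and 6 GR peaks and 4 and 3 E2A peaks in replicates 1 and 2. The peaks of all 4 samples merged into 1 position of 4390 bp, which is the width of the GR replicate 2 peak and spans the gene from before its start to past its end. The other samples split this stretch, GR replicate 1 into peaks of 1922 and 920 bp, E2A replicate 1 into 613 and 497 bp, and E2A replicate 2 into 512, 720 and 1131 bp. Peaks thus covered 78.0% and 100% of the gene's span in the GR replicates and 11.0% and 61.1% in the E2A replicates. Of the more distant peaks, those at the promoters of Supt5, Rps16 and Paf1 were called only in GR replicate 2, and that at Plekhg2 in GR replicate 2 and E2A replicate 1.

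Dusp1 had 2 and 4 GR peaks and 4 and 2 E2A peaks. Its promoter was called in every sample, with widths of 691 and 1683 bp for GR and 954 and 753 bp for E2A. A position upstream, at -3691 bp, was called in both GR replicates and in E2A replicate 1. Another at -14100 bp was called in both E2A replicates, 283 and 301 bp wide, and in neither GR replicate, the single position of this kind among the 48 at the 10 genes. Nfkbia had 2 and 1 GR peaks and 2 and 1 E2A peaks. The GR peaks over its start, of 1025 and 1039 bp, met E2A peaks of 516 and 332 bp on the side of the gene body, and the deposited annotation calls the first E2A peak promoter and the other intron. A second position, 18406 bp past the start, was called in replicate 1 of each ChIP and in neither replicate 2.

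Sgk1 had 3 and 2 GR peaks and 0 and 0 E2A peaks. Both GR replicates called the promoter of the main transcript, 530 and 635 bp wide, and an intergenic position of 256 and 378 bp at 6868 bp from that start. The peak on the neighbouring promoter, 370 bp wide and holding the GRE with 0 mismatches shown above, was called in GR replicate 1 alone. The RefSeq gene reaches far upstream to other first exons, and none of those starts had a peak.

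Errfi1 had the most peaks of the 10 genes, 13 and 5 for GR and 8 and 10 for E2A, and ranked 7 of 21774 genes by total. The low count in GR replicate 2 is 1 peak of 20609 bp, the widest of its 7334 peaks, that runs over the whole gene and beyond. Over the position of 21572 bp joined from all 4 samples, GR replicate 1 had 8 peaks that sum to 10454 bp, E2A replicate 1 had 6 peaks of 11562 bp in all and E2A replicate 2 had 8 peaks of 13920 bp. The shares of the gene's span under peaks were 39.5% and 100% for GR and 44.1% and 69.9% for E2A. The number of peaks at such a gene follows how a stretch was split and is no measure of binding.

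**Figure D2:**
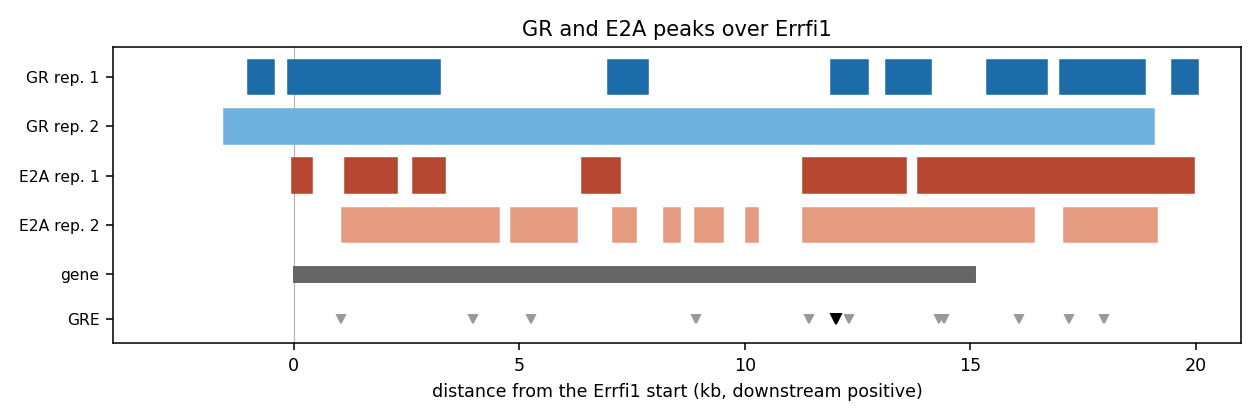
Peaks over Errfi1 by sample against the distance in kb from the RefSeq start, with the gene span (dark bar) and GREs (triangles, grey for 2 mismatches, black for 1). GR replicate 2 is a single block of 20609 bp, whereas the other samples have 6 to 8 peaks over the joined position of 21572 bp.

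Upstream of Errfi1 the positions separated. At -97677 bp and -68154 bp all 4 samples had a peak, with GR peaks of 677 and 662 bp against E2A peaks of 564 and 391 bp at the first, and of 897 and 699 bp against 383 and 325 bp at the second. At -72030 bp, with 930 and 1163 bp, and at -53439 bp, with 447 and 281 bp, both GR replicates and neither E2A replicate had one. The last of these holds the GRE with 0 mismatches. At -54645 bp a peak was called in GR replicate 1 alone.

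Klf9 had 6 and 10 GR peaks and 4 and 4 E2A peaks. Its promoter was called in all 4 samples, with GR peaks of 776 and 965 bp and E2A peaks of 603 and 449 bp. So was a position at -4311 bp, 2136 and 2990 bp wide for GR, in which E2A replicate 1 had a peak of 819 bp and E2A replicate 2 peaks of 349 and 481 bp. Between -72203 and -105876 bp lay a cluster of 7 positions. Of these, 4 were called in both GR replicates, and a peak of a single E2A replicate met 2 of those 4, replicate 1 at -83724 bp and replicate 2 at -72203 bp.

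The metallothionein genes lie within 50 kb of each other and shared all their peaks, 2 and 3 for GR and 1 and 0 for E2A. Both GR replicates called a position at -882 bp of Mt2, 481 and 319 bp wide, and the Mt1 promoter, 493 and 631 bp wide, and each holds a GRE with 0 mismatches. The E2A peak of replicate 1, 321 bp wide, lay past Mt1 at 3961 bp and met a peak of 467 bp of GR replicate 2. Neither E2A replicate called the Mt1 promoter or the position before Mt2.

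Lcn2 itself had no annotated peak and its own promoter lay under none. The 8 and 7 GR peaks and 5 and 5 E2A peaks counted for it all lay between -20729 and -36152 bp (nearest edge) and were annotated to Slc25a25 or Ptges2. They cover the gene Slc25a25, a mitochondrial carrier, with a position of 5344 bp over its promoter and first introns called in all 4 samples and another of 2302 bp at its end. With 50 kb narrowed to 25 kb, Lcn2 kept peaks of both GR replicates and lost its E2A peaks.

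**Figure D3:**
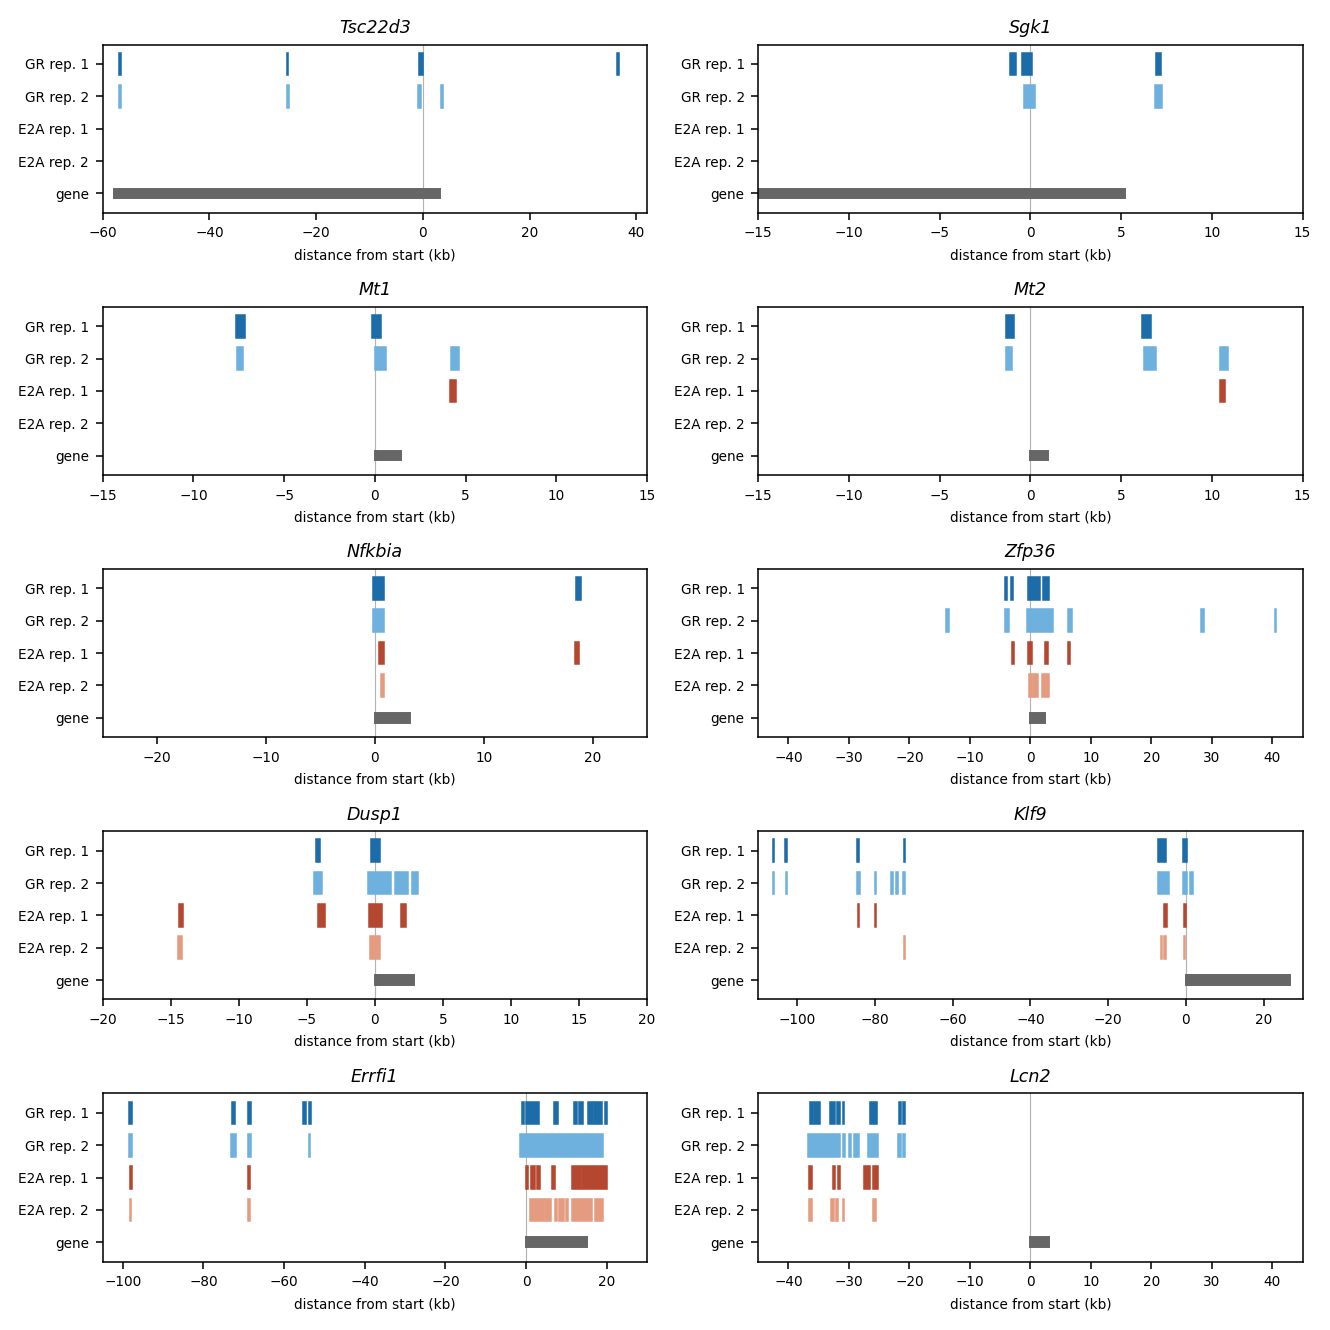
Peaks of the 4 samples at each gene against the distance in kb from the gene's start, along the direction of transcription (dark bar, gene span; for Tsc22d3 and Sgk1 the start of the promoter with peaks). E2A rows are empty at Tsc22d3 and Sgk1, and the peaks counted for Lcn2 all lie upstream of the gene.

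Peaks of any sample that shared at least 1 bp were joined into positions, 48 at the 10 genes and 10755 in all. All 4 samples called 10 of the 48, or 20.8%, against 4.44% of all positions. Both GR replicates and no E2A replicate called 14, or 29.2%, against 13.6%. A single GR replicate and no E2A called 13, or 27.1%, against 43.0%. E2A without GR was found at 1 of 48, or 2.08%, against 18.6%. Positions with GR and no E2A made up 56.2% of those at the 10 genes and 56.7% of all. A wider peak can join more peaks into 1 position, and peaks at these genes were wider. Those of at least 1500 bp were 9.09% and 14.3% in GR replicates 1 and 2, against 0.955% and 3.03% of the lists. For E2A replicates 1 and 2 they were 7.14% and 12.0%, against 0.894% and 2.11%. All of these wide E2A peaks lay over Errfi1, and the other genes had none. Whether width bears on the share called in all 4 samples was not tested.

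**Figure D4:**
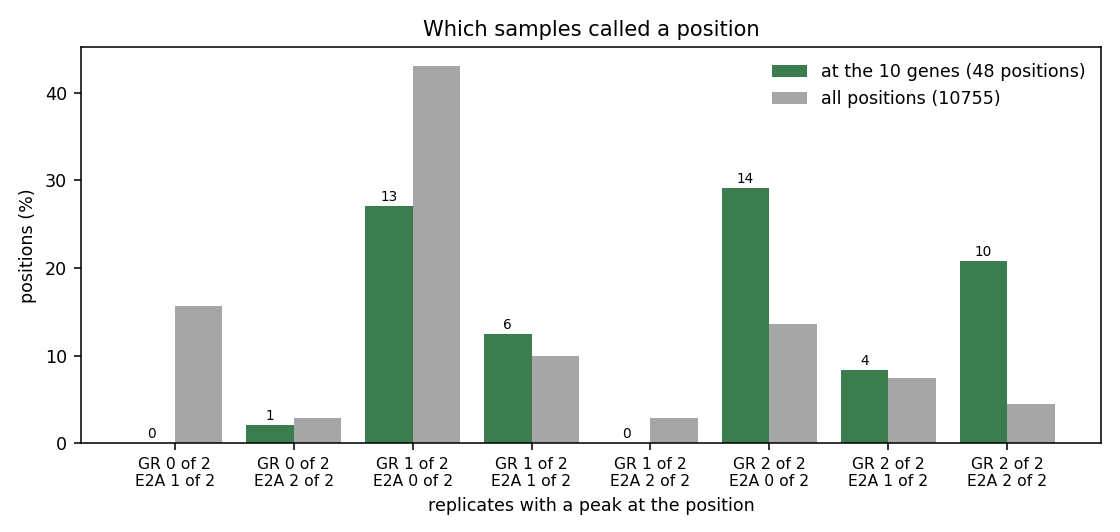
Percentage of positions (y axis) by how many GR and E2A replicates called them (x axis), for the 48 positions at the 10 genes (green, with counts) and all 10755 (grey). Positions called in all 4 samples are 20.8% against 4.44%, and those called by E2A alone 2.08% against 18.6%.

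Seen from E2A, 27 of 28 peaks of replicate 1 (96.4%) and 24 of 25 of replicate 2 (96.0%) at these genes met a GR peak of either replicate, where over the whole lists 58.6% and 64.5% did. Since the GR replicate 2 peak over Errfi1 meets many E2A peaks at once, the same was counted without Errfi1, giving 19 of 20 and 14 of 15. The remaining genes are also known for GR and had GR peaks in both replicates. These counts therefore cannot separate the overlap from the choice of genes. Seen from GR, 25 of 44 peaks of replicate 1 (56.8%) and 18 of 42 of replicate 2 (42.9%) met an E2A peak, against 39.4% and 31.4% of the lists. Without Errfi1 it was 16 of 31 (51.6%) and 15 of 37 (40.5%). Between replicates, 38 of 44 peaks of GR replicate 1 met one of replicate 2 (86.4%, Wilson interval 73.3 to 93.6%; 65.6% over the list), and 18 of 28 of E2A replicate 1 met one of replicate 2 (64.3%, 45.8 to 79.3%; 27.9%). These intervals take peaks as independent, although several peaks of GR replicate 1 met the same wide peak of replicate 2, as over Errfi1. They are thus too narrow, and no count between replicates without Errfi1 is given here. At 8 of 10 genes at least 1 GR and E2A peak shared bases, against 20.2% of all genes. Mt1 and Mt2 count through 1 and the same position, and Lcn2 through peaks annotated to Slc25a25. At 6 of the 8 genes a shared position was called in both replicates of both ChIPs, and the matching share of all genes is not given here.

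A peak annotated as promoter was called by both GR replicates at 7 of 10 genes, against 5.12% of all genes, namely Tsc22d3, Zfp36, Dusp1, Nfkbia, Sgk1, Klf9 and Mt1. Both E2A replicates called a promoter peak at 3 of 10, Zfp36, Dusp1 and Klf9, against 2.07%. The Errfi1 promoter is in neither count, since the deposited annotation gives the peak over it to the neighbour 1700045H11Rik in each replicate 2.

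Merging the GR replicates alone gave 48 regions at these genes and 8795 in all. A GRE with up to 2 mismatches stood in the central 400 bp of 15 of 48 regions, or 31.2% (Wilson interval 19.9 to 45.3%), against 26.4% of all GR regions, a value inside the interval. Without GR replicate 2 it was 47.7%, against 35.5% of all regions of replicate 1. By kind, 6 of 15 promoter regions (40.0%, 19.8 to 64.3%) held a GRE, against 14.5% of all promoter regions, and 9 of 33 others (27.3%, 15.1 to 44.2%), against 38.4%. The promoter label holds for a whole merged region. In the Errfi1 region of 20609 bp the GRE counted lay 7641 bp past the nearest start. That of the Slc25a25 region of 5344 bp, at chr2:32421870-32421884, also lay inside the gene, and the others were at Mt1, Mt2 and Sgk1. A GRE with 0 mismatches anywhere in the region was found in 5 of 48, or 10.4%, against 1.44% of all. In the central 400 bp it was 4 of 48, or 8.33%, against 1.26%, and among regions of at most 1000 bp 4 of 40, or 10.0%, against 1.35%. This count was added after the elements were seen. Of the 5 elements with 0 mismatches 1 was under an E2A peak (against 9.45% of 127 such elements in all GR regions), of 8 with 1 mismatch 4 were (against 17.5% of 669) and of 39 with 2 mismatches 22 were (against 22.9% of 3092), and the peaks over Errfi1 and Slc25a25 hold many of the latter. A GRE with up to 2 mismatches was in the centre of 7 of 21 GR regions met by E2A (33.3%, against 23.8% of all 2702 such regions) and of 8 of 27 others (29.6%, against 27.5% of all 6093). Among E2A regions at these genes 10 of 34 held a GRE with up to 2 mismatches, or 29.4% (16.8 to 46.2%). The share of all E2A regions was 17.98%, a value inside the interval. With up to 1 mismatch 4 of 34 held a GRE, or 11.8% (4.67 to 26.6%), against 2.45% of all E2A regions. Most E2A peaks at these genes met a GR peak, while many of all E2A peaks did not. The share among all E2A regions met by GR is not given here, so the 2 sets are unlike.

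**Figure D5:**
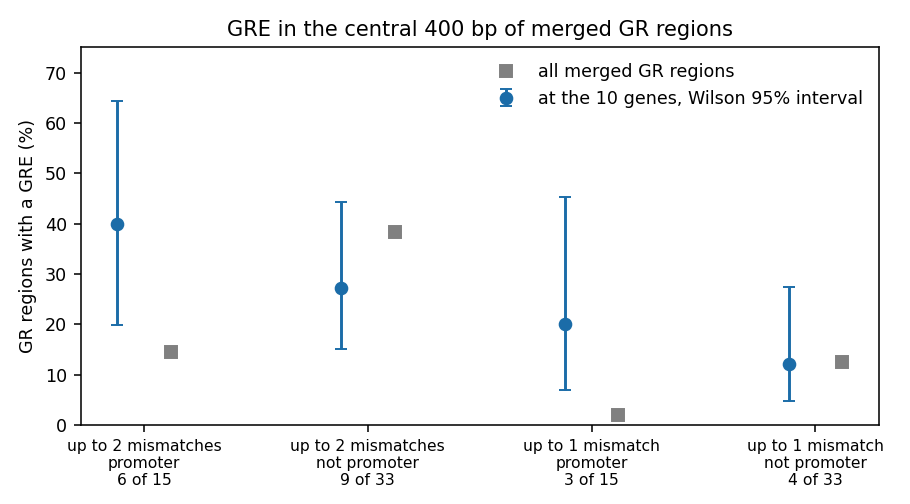
Percentage of merged GR regions with a GRE in the central 400 bp (y axis), for regions at the 10 genes (blue, Wilson 95% intervals) and all GR regions (grey), by promoter or other annotation and mismatches allowed. Of regions annotated as promoter 6 of 15 held a GRE, against 14.5% of all, and of the others 9 of 33, against 38.4%. In the wide Errfi1 and Slc25a25 regions, labelled promoter, that GRE lay inside the gene.

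CANNTG was in the central 400 bp of 39 of 48 GR regions (81.2%), against 74.5% of all GR regions, and in 26 of 34 E2A regions at these genes (76.5%), against 77.1% of all 4783 E2A regions. TTGCNNAA, a C/EBP core, was in 8 of 48 GR regions, TGANTCA, the AP-1 site, in 6, TGTTTAC, a forkhead site, in 4, and the HNF4 core CAAAGTCCA in 1, searched on both strands. The corresponding shares were 16.7%, 12.5%, 8.33% and 2.08%, against 17.1%, 8.29%, 5.95% and 1.90% of all GR regions. The Wilson intervals of all 4 shares include the background.

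Other genes that glucocorticoids induce and relatives of the 10 genes were read in the same way. Of 18 other induced genes, 17 had GR peaks in both replicates and 11 E2A peaks in both, against 22.3% and 12.0% of all protein-coding genes. Pdk4 had none in any sample. Ddit4, Cdkn1a, Cebpd and Igfbp1 shared the pattern of Tsc22d3 and Sgk1, with 4 and 2, 2 and 1, 2 and 3, and 2 and 1 GR peaks and no E2A peak. Per1, a circadian clock gene, had 4 and 6 GR peaks and 3 and 1 E2A peaks, and Tat (tyrosine aminotransferase) and Pck1 (gluconeogenesis) had peaks in all 4 samples. Of 17 paralogs, 9 had GR peaks in both replicates and 11 E2A peaks in both, against the same 22.3% and 12.0%. The phosphatase genes Dusp4 and Dusp10 had E2A peaks in both replicates, 1 and 1 and 1 and 2, and no GR peak, unlike Dusp1, and Sgk2 had 1 GR peak in replicate 1 and Sgk3 none, unlike Sgk1. The pattern of GR in both replicates with no E2A was found at 4 of the 18 induced genes and 0 of the 17 paralogs, against 6.16% of all genes. At that share few of 17 genes would have it, so its absence among the paralogs sets them little apart. A GR and an E2A peak shared bases at 13 of the 18 induced genes and 12 of the 17 paralogs. Among the 10 genes it was 8, and among all genes 20.2%. Mt3 and Mt4 lie in the same cluster as Mt1 and Mt2 and count the same peaks.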

How the data were processed

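GR and E2A were mapped by ChIP-Seq in E47+/+ livers. Per the labels and the methods, the authors mapped reads on mm10 (BWA-MEM 0.7.13), removed duplicates with Picard and kept uniquely mapped read pairs. They downsampled each ChIP to a fixed number of pairs, smaller for GR than for E2A, and called peaks in each sample with MACS2. The labels give Picard 1.119 and MACS2 2.1.0, and the methods name other versions. The deposited values are peak positions, widths and distances in bp with gene annotations. They hold no counts, scores or q-values, and the control and the threshold are not given in the sources used here. The numbering of the GR replicates follows the titles, since the names of the lists reverse it. Replicates are biological per the design text.

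RefSeq gene starts (GRCm38.p6, which is mm10) were used, and 88.3% of 6697 deposited starts lay within 100 bp of a RefSeq start of the same gene. Distances were taken to the nearest RefSeq or deposited start. The genes and lists were chosen with earlier results of these data known, and the genes named are the 10 members, 2 fixed lists of related genes and the neighbours that peaks were annotated to. Samples were compared with exact permutation tests. Wilson intervals cover counting error only and take peaks or regions as independent, which peaks split from 1 stretch are not. Alternatives changed the window, annotation, peak width, gene start, overlap rule, GRE search and samples. The code was tested on simulated data. Python 3.11.15 with numpy 2.4.6, pandas 2.3.3, scipy 1.17.1, pysam 0.24.0 and matplotlib 3.10.9 was used, and samtools 1.23.1 indexed the genome.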

Additional observations from a re-analysis of the deposited data

How the results depend on the processing

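The counts at the 10 genes kept their direction under every alternative run. The difference in peaks between GR and E2A was 12.5 to 19 over the windows of 25 and 100 kb, annotated peaks only, peaks of at most 2000 bp and deposited gene starts, and 15 to 18 when a replicate was left out. Chosen after seeing the data, every RefSeq transcript start gave 16.5 and leaving out Errfi1 gave 16.5. The difference in genes with a peak was 2 to 4 without a replicate, 4 with 25 kb and 3.5 with annotated peaks only. GR in both replicates was found at 9 genes with annotated peaks only and at 10 under the other alternatives. E2A in both replicates was found at 5 genes with 25 kb or annotated peaks only. With E2A replicate 2 left out, whose description names E47-/-, 8 genes had a peak in the remaining E2A replicate. A shared position was found at 7 genes with 25 kb and at 6 with annotated peaks only, without GR replicate 2 or without E2A replicate 1.

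With labels permuted within the replicate number as a block, the difference stayed 16.5 peaks and 3 genes, with an exact permutation p = 0.5, the smallest that 2 pairs allow. Gene by gene, replicate 1 minus replicate 2 of GR and of E2A correlated at 0.15 over 10755 genes, and which GR and E2A samples share a liver is not given in the sources used here.

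The share of GR regions with a GRE was 31.2%. It moved to 14.6% with up to 1 mismatch (7.14% of all regions) and to 45.8% in whole peaks (32.6%), and it ranged from 28.6% to 47.7% when GR replicates were left out in turn, the latter without replicate 2. The cause was not tested. The other alternatives gave 20.8% to 39.3%, and outside promoters 27.3% against 38.4% of all regions. The reads behind a peak are not given, and an absent peak is a peak not called in these lists, not absent binding.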
